A study of Rattus norvegicus with 2 samples.

Results

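The mitochondrial carriers of the Slc25 family were taken from the deposited gene table by symbol, as every symbol made of Slc25a and a number. This gave 39 genes of the 16846 in the table. Of these, 34 had reads and 5 were listed at 0 in both libraries. The anti-miR library came from cultures of rat ventricular cells, taken at postnatal day 0 and kept for 7 days with adeno-associated virus (AAV2/9) carrying short hairpin RNAs against miR-99/100 and let-7. The control library came from cultures prepared by the same protocol, which the treatment label describes as given an empty AAV and the protocol as mock-transduced. Whether both libraries came from a single cell preparation was not given. In both, cells that attached to uncoated plastic within 2 h were left behind, and the protocol describes such cultures as mostly cardiomyocytes. Strain, sex and the number of animals pooled were not given in the sources used here. Poly(A) RNA was sequenced with strand kept, in 1 library per group, so no difference below has a replicate check and each describes these 2 libraries. In such bulk RNA, fewer cells of a type and less RNA per cell cannot be told apart.

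The inner mitochondrial membrane is closed to most metabolites, and Slc25 carriers, small proteins built from repeats of a common fold, exchange them across it. Heart muscle depends on them for the export of ATP, the import of phosphate and of fatty acids bound to carnitine, and the shuttling of reducing power by malate and aspartate. Other members bring in cofactors, iron, nucleotides, glutathione and amino acids.

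The hairpins were directed at miRNAs of 2 seed families. Their mature sequences, credited to RefSeq with the GRCr8 build, are shown as the families named by the labels, with miR-99b standing for the miR-99 members. The seed, bases 2 to 8, is in capitals, and let-7a and let-7c share one seed while miR-99b and miR-100 share the other.
rno-let-7a-5p: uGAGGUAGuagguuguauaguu
rno-let-7c-5p: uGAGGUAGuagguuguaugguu
rno-miR-100-5p: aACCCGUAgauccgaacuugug
rno-miR-99b-5p: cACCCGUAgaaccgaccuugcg

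Promoters of 33 of the 39 carriers were matched by symbol in RefSeq sequences of GRCr8, each with 250 bases before and 50 after the annotated start. Those of the carrier with the lowest ratio (Slc25a42) and of the ADP/ATP exchangers (Slc25a5 and Slc25a4) are shown for the letters they hold. All 3 lie on the plus strand, at chr16:19247724-19248023, chrX:120897366-120897665 and chr16:52805271-52805570. Capitals mark the GC box GGGCGG, the CCAAT box and the ETS core CGGAAG, on either strand. The Slc25a42 and Slc25a4 windows hold all 3 of these motifs, and the Slc25a5 window holds the GC box alone.
Slc25a42: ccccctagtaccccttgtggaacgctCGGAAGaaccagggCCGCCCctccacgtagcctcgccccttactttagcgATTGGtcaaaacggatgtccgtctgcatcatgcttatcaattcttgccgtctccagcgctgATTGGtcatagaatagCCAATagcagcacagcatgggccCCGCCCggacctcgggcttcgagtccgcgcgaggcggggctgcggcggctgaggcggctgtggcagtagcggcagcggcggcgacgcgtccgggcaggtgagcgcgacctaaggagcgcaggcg
Slc25a5: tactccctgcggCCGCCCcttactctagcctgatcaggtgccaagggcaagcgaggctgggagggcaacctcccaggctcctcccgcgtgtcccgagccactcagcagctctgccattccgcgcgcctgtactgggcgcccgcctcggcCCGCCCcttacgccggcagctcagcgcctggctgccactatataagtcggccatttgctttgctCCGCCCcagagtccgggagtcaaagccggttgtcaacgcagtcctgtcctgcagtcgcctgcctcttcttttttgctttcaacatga
Slc25a4: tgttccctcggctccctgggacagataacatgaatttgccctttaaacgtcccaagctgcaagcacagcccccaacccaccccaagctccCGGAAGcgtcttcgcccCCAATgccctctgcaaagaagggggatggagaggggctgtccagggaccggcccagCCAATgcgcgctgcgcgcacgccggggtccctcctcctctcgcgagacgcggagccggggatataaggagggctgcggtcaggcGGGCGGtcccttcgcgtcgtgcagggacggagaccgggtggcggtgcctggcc

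Across the family the GC box stood in 23 of 33 promoters (69.7%, against 33.1% of all 33469 promoters of that length). The CCAAT box stood in 19 (57.6%, against 37.5%). The set of all promoters was not limited to genes measured here or to genes of like level. The ETS core, whose letters can overlap those of a GC box, stood in 10 (30.3%, against 16.6%). The median GC content was 60.3% in carrier promoters and 51.7% in all. The cAMP response element TGACGTCA stood in 2 carrier promoters, those of Slc25a25 and Slc25a33 (6.06%, against 1.83%). The E box CACGTG was in Slc25a2 and Slc25a33 (6.06%, against 6.42%) and the ERR element AAGGTCA in Slc25a34 alone (3.03%, against 4.61%). The exact TATA box letters TATAAA were in Slc25a38 alone, at position −228 from the annotated start (3.03%, against 14.2%). Near matches, such as TATAAG in the Slc25a5 and Slc25a4 windows above, were not counted. The NRF1 element GCATGCGC was in 0 of 33 (against 2.47%). Such matches are letters in a window and not sites of binding.

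The anti-miR library held 14815846 reads on genes and the control library 16031780. Levels are given in RPM, reads per 1000000 reads on genes, or, between genes, in RPKM, which is RPM per kilobase of exon. Intervals in brackets are exact Clopper-Pearson 95% intervals of a ratio of reads and cover counting error only. Some genes that every cell uses were nearly without reads, with 34 reads in the anti-miR and 45 in the control library for Gapdh and 0 in both for Rpl38, so a listed 0 is not read as absence. A count of 0 allows up to 3 reads, or 0.202 RPM in the anti-miR and 0.187 RPM in the control library. Of 18 measured cardiomyocyte markers, Tnnt2 had 2388 reads in the anti-miR and 2363 in the control library and Actc1 had 1315 in the anti-miR and 1234 in the control, while Ckm and Myl7 were at 0 in both libraries and Myh6, Myl3, Ryr2, Tnni3 and Mb had 0 reads in the control. Ckmt2 had 0 reads in the anti-miR library. Of the 18 markers 9 reached 1 RPM on average, 6 of them higher and 3 lower in the anti-miR library. The lower ones were Myl2 (5 reads in the anti-miR and 30 in the control library), Tnnc1 (33 and 59) and Pln (100 and 135). Together the 18 markers came to 293 RPM in the anti-miR and 256 RPM in the control library. The 11 fibroblast markers came to 127621 and 127430 RPM in the anti-miR and the control library, and the 12 macrophage markers to 7973 and 7254 RPM, all of these averaging at least 1 RPM. Of the fibroblast markers 7 were higher and 4 lower in the anti-miR library, and of the macrophage markers 7 were higher and 5 lower. Among the latter, Lyz2 alone had 3937 RPM in the anti-miR and 2937 RPM in the control library, while C1qa had 355 and 528 RPM. The part of these cell types in the carrier values was not tested.

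The family as a whole differed little between the libraries. Its 39 genes took 22143 reads in the anti-miR and 22721 in the control library, 1495 and 1417 RPM, a ratio of 1.05 (1.04 to 1.07). All 34 carriers with reads averaged at least 1 RPM, and 22 of them were higher and 12 lower in the anti-miR library. Of all 10365 genes that averaged 1 RPM or more, 5522 were higher and 4843 lower. The carriers' median log2 ratio, of RPM plus 0.1, was 0.13, beside 0.03 over all 10365 genes. A ratio of at least 2 was reached by 4 carriers (11.8%, against 5.00% of all genes) and a ratio of 0.5 or less by 0 (against 3.78%). Of the 4, Slc25a34, Slc25a23 and Slc25a35 reached a mean of 1 RPM only through the anti-miR library. Their control levels were 0.062, 0.437 and 0.561 RPM. At 1.5-fold, 7 carriers were higher (20.6%, against 11.0%) and 1 was lower (2.94%, against 8.67%). Counting intervals lay above 1 for 13 carriers (38.2%, against 33.6%) and below 1 for 6 (17.6%, against 28.1%), and included 1 for 15.

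The 7 carriers that were 1.5-fold higher were all scarce. Among the 21 carriers of at least 10 RPM, 0 were 1.5-fold higher and 1 was 1.5-fold lower, where 5.46% and 3.62% of all genes at that level were. Among the 13 carriers of 1 to 10 RPM, 7 were 1.5-fold higher and 0 lower, where 28.9% and 25.2% of all genes were. Of these 7, Slc25a34, Slc25a23 and Slc25a35 entered the band only through their anti-miR reads. With a floor of 5 RPM in place of 1 RPM, 0 of 24 carriers were 2-fold higher (against 1.95% of all 8959 genes at that floor), 0 were 1.5-fold higher (against 7.27%) and 7 had an interval above 1 (29.2%, against 34.0%). Slc25a45, with a ratio of 2.39 and a mean of 4.98 RPM, fell just short of that floor. The log2 ratio of each of the 34 carriers lay within its like-level range, the span that holds the middle 95% of 500 genes whose mean levels were closest to its own. For Slc25a34, Slc25a23 and Slc25a35 the upper end could not be passed. At the same mean level, even 0 control reads would give a log2 ratio below it, so lying within the range says nothing about these carriers.

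**Figure D1:**
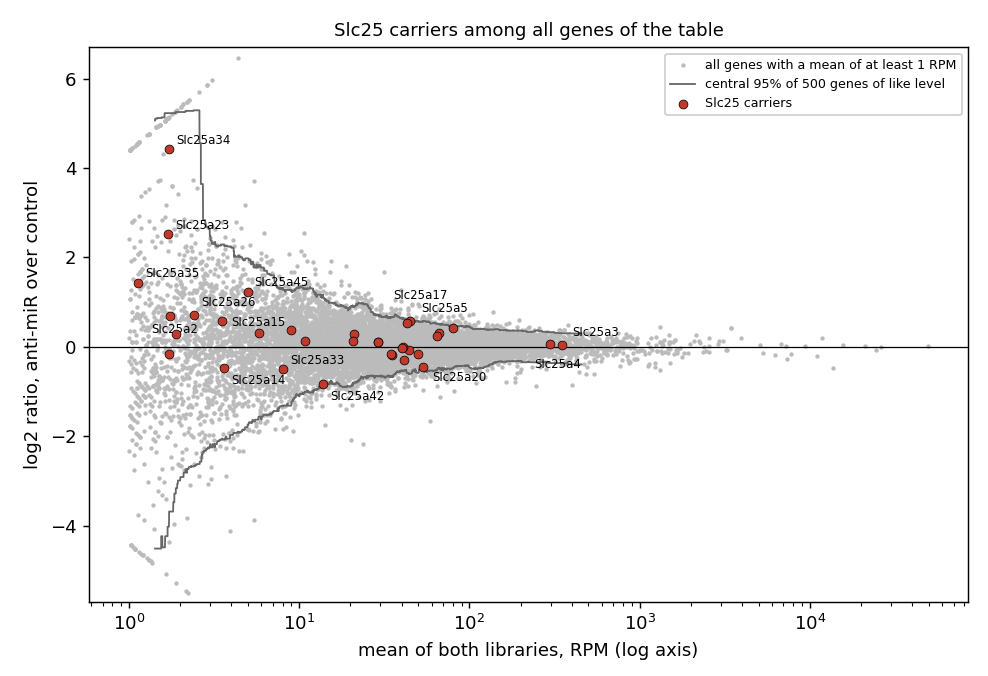
Mean level of each gene in both libraries (RPM, log axis) against its log2 ratio of anti-miR over control; grey points are all genes averaging 1 RPM or more, red points the 34 Slc25 carriers with reads, and the lines bound the central 95% of a running window of 500 genes. The abundant carriers Slc25a3 and Slc25a4 lie near 0, Slc25a42 lies near the lower line, and Slc25a34 and Slc25a23 lie high among the widely scattered genes of low level.

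Exchange of ADP for ATP and import of phosphate, the steps that feed and empty the ATP synthase, made up the largest share of the family. Slc25a3, the phosphate carrier (chromosome 7, 28054656 to 28062119 on build rn4, as are all positions of members below), had 263 RPKM in the anti-miR and 257 RPKM in the control library, from 5216 reads in the anti-miR and 5519 in the control. Its ratio was 1.02 (0.984 to 1.06). The gene is known for a heart and muscle form and a general form that differ in a single exon, and the table keeps 1 transcript per gene, so these forms are not told apart here. Slc25a4, the ADP/ATP exchanger typical of heart and muscle (chromosome 16, 49353476 to 49357271), had 237 RPKM in the anti-miR and 228 RPKM in the control library, with a ratio of 1.04 (0.998 to 1.08). Together Slc25a3 and Slc25a4 took 43.9% of the family's reads in the anti-miR library (43.3 to 44.6%) and 44.9% in the control library (44.3 to 45.6%).

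Slc25a5, the ADP/ATP exchanger known for its use in dividing cells (chromosome X, 8072239 to 8075306), had 794 reads in the anti-miR and 576 in the control library, 44.9 and 30.1 RPKM. It was 1.49-fold higher in the anti-miR library (1.34 to 1.66), the highest ratio among carriers of at least 5 RPM, with a log2 ratio of 0.58 at the upper edge of its like-level range of −0.60 to 0.58. Of the reads on this pair of exchangers, Slc25a5 took 15.0% in the anti-miR (14.0 to 16.0%) and 10.9% in the control library (10.1 to 11.8%). These intervals cover counting error only and have no replicate behind them. Per length, Slc25a4 stood 5.28-fold above Slc25a5 in the anti-miR and 7.57-fold in the control library. The Slc25a5 values are uncertain, since RefSeq annotates 9 pseudogenes named after it, against 1 for Slc25a4 and 2 for Slc25a3, and how reads matching several places were counted was not given in the sources used here.

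Carriers of ATP-Mg and phosphate, which set the adenine nucleotide pool of the matrix in a calcium-dependent way, had ratios above 1 in the 3 members with reads, with intervals above 1 in Slc25a24 and Slc25a23. Of all 10365 genes averaging 1 RPM or more, 5522 had ratios above 1 and 33.6% had intervals above 1. Slc25a24 had 70.3 RPM in the anti-miR and 59.1 RPM in the control library, a ratio of 1.19 (1.09 to 1.30). Slc25a25 had 30.1 RPM in the anti-miR and 27.9 RPM in the control library, with an interval of the ratio that included 1 (0.943 to 1.23). Slc25a23, placed on an unassigned contig of rn4 (24707016 to 24720921), had 44 reads in the anti-miR and 7 in the control library, a ratio of 6.80 (3.04 to 17.9). It reached a mean of 1 RPM only through the anti-miR library, with 0.437 RPM in the control. Its log2 ratio of 2.52 lay within a like-level range of −4.03 to 5.23, whose upper end no ratio could pass at that mean level. Slc25a41, the relative that lacks the calcium-binding part, was listed at 0 in both libraries.

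**Figure D2:**
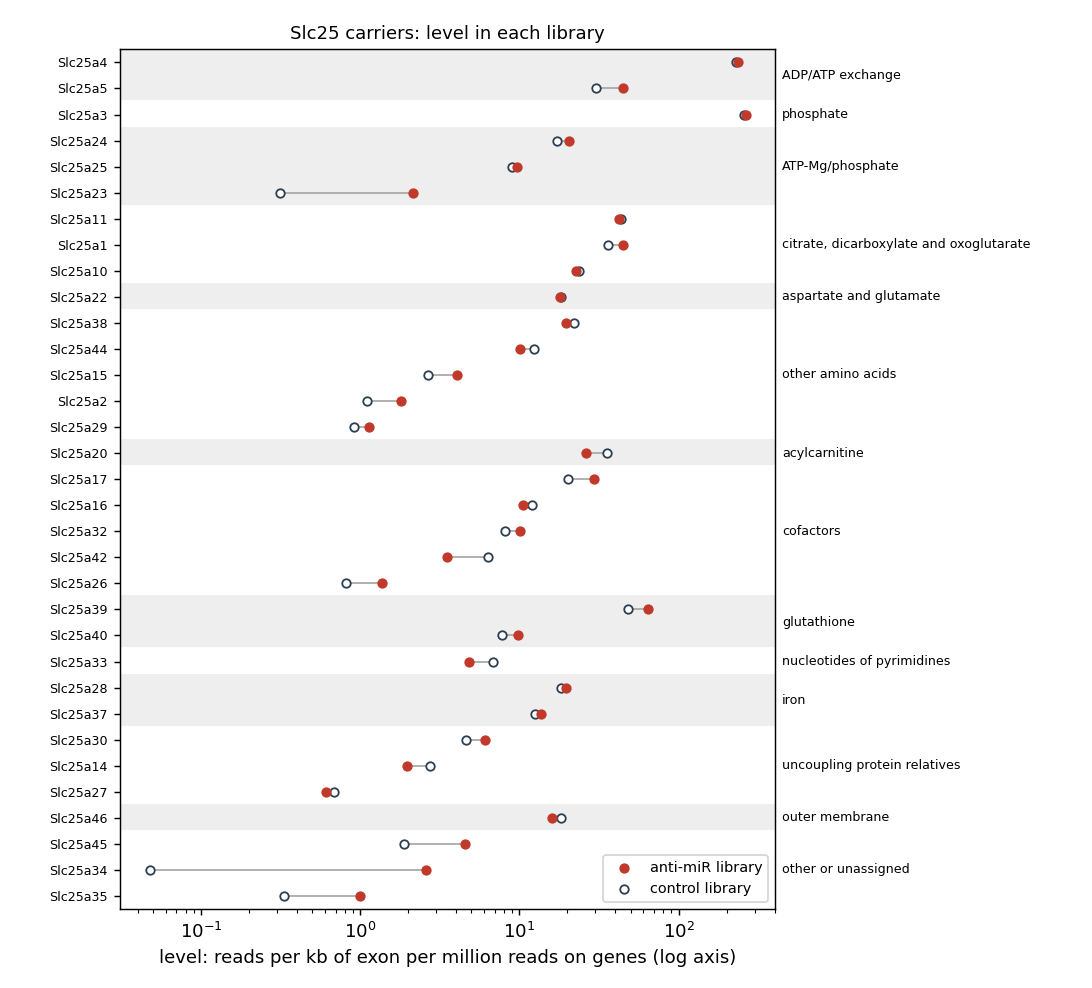
Level of 33 of the 34 Slc25 carriers with reads, in RPKM (log axis), in the anti-miR library (filled red) and the control library (open), grouped by the substrate named at the right. Slc25a3 and Slc25a4 stand above all others at 228 to 263 RPKM, and the widest gaps between the libraries are those of Slc25a34 and Slc25a23.

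Among carriers of citric acid cycle intermediates, the citrate carrier alone had an interval that left out 1. Slc25a1, which exports citrate for lipid synthesis, had 72.8 RPM in the anti-miR and 59.0 RPM in the control library, a ratio of 1.23 (1.13 to 1.35). The oxoglutarate and malate carrier Slc25a11, part of the malate-aspartate shuttle, had 42.5 RPKM in the anti-miR and 43.6 RPKM in the control library, a ratio of 0.975 (0.870 to 1.09). The dicarboxylate carrier Slc25a10 had 43.2 RPM in the anti-miR and 45.0 RPM in the control library, also with an interval that included 1 (0.861 to 1.07). The glutamate carrier Slc25a22 had 600 reads in the anti-miR and 654 in the control library, a ratio of 0.993 (0.887 to 1.11). The other glutamate carrier, Slc25a18, and the oxodicarboxylate carrier Slc25a21 were listed at 0 in both. The aspartate and glutamate carriers Slc25a12 and Slc25a13 were not analysed here.

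The acylcarnitine carrier Slc25a20 was the most abundant carrier, in RPKM, with an interval below 1. This gene (chromosome 8, 113715211 to 113737063) encodes the step between the carnitine palmitoyltransferases of the outer and the inner membrane. It had 672 reads in the anti-miR and 995 in the control library, 45.4 and 62.1 RPM, and its ratio was 0.731 (0.662 to 0.807). The log2 ratio of −0.45 lay within the like-level range of −0.51 to 0.57. Among its partners the inner membrane enzyme Cpt2 had 23.2 RPM in the anti-miR and 31.6 RPM in the control library, a log2 ratio of −0.45. Of the outer membrane enzymes, Cpt1a had 72.8 RPM in the anti-miR and 50.2 RPM in the control library. Its log2 ratio of 0.53 lay just above its like-level range of −0.54 to 0.52. The muscle form Cpt1b had 5.60 RPM in the anti-miR and 2.56 RPM in the control library, a log2 ratio of 1.10. Cpt1c, best known from brain, had 27.0 RPM in the anti-miR and 30.3 RPM in the control library, with an interval of the ratio that included 1 (0.778 to 1.02). The carnitine importer Slc22a5 was lowest of the 9 genes of the carnitine system at −1.03, with 5.80 RPM in the anti-miR and 12.0 RPM in the control library, and the list's median was −0.14.

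Cofactor carriers held both the clearest lower and one of the higher ratios. Slc25a42, which exchanges coenzyme A for adenine nucleotides (chromosome 16, 19697100 to 19720036), had 146 reads in the anti-miR and 283 in the control library, 9.85 and 17.7 RPM. Its ratio of 0.558 (0.454 to 0.684) was the lowest in the family and the only one 1.5-fold lower, and its log2 ratio of −0.83 lay just inside the like-level range of −0.89 to 1.11. Slc25a17, the family's peroxisomal member, which carries coenzyme A and related nucleotides (chromosome 7, 119645403 to 119690130), had 757 reads in the anti-miR and 564 in the control library. It was 1.45-fold higher (1.30 to 1.62), at 51.1 RPM in the anti-miR and 35.2 RPM in the control library, with a log2 ratio of 0.54 within a range of −0.58 to 0.58. Slc25a16, linked to coenzyme A transport, had 32.7 RPM in the anti-miR and 37.2 RPM in the control library, a ratio of 0.881 (0.779 to 0.994).

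Of the remaining cofactor carriers, the folate and FAD carrier Slc25a32 had 23.1 RPM in the anti-miR and 18.8 RPM in the control library, a ratio of 1.23 (1.05 to 1.44). The S-adenosylmethionine carrier Slc25a26 had 45 reads in the anti-miR and 29 in the control library, a ratio of 1.68 whose interval began just above 1 (1.03 to 2.78). The NAD carrier known as Slc25a51 is listed in the table under Mcart1 and so falls outside the symbol rule; it had 24 reads in each library.

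**Figure D3:**
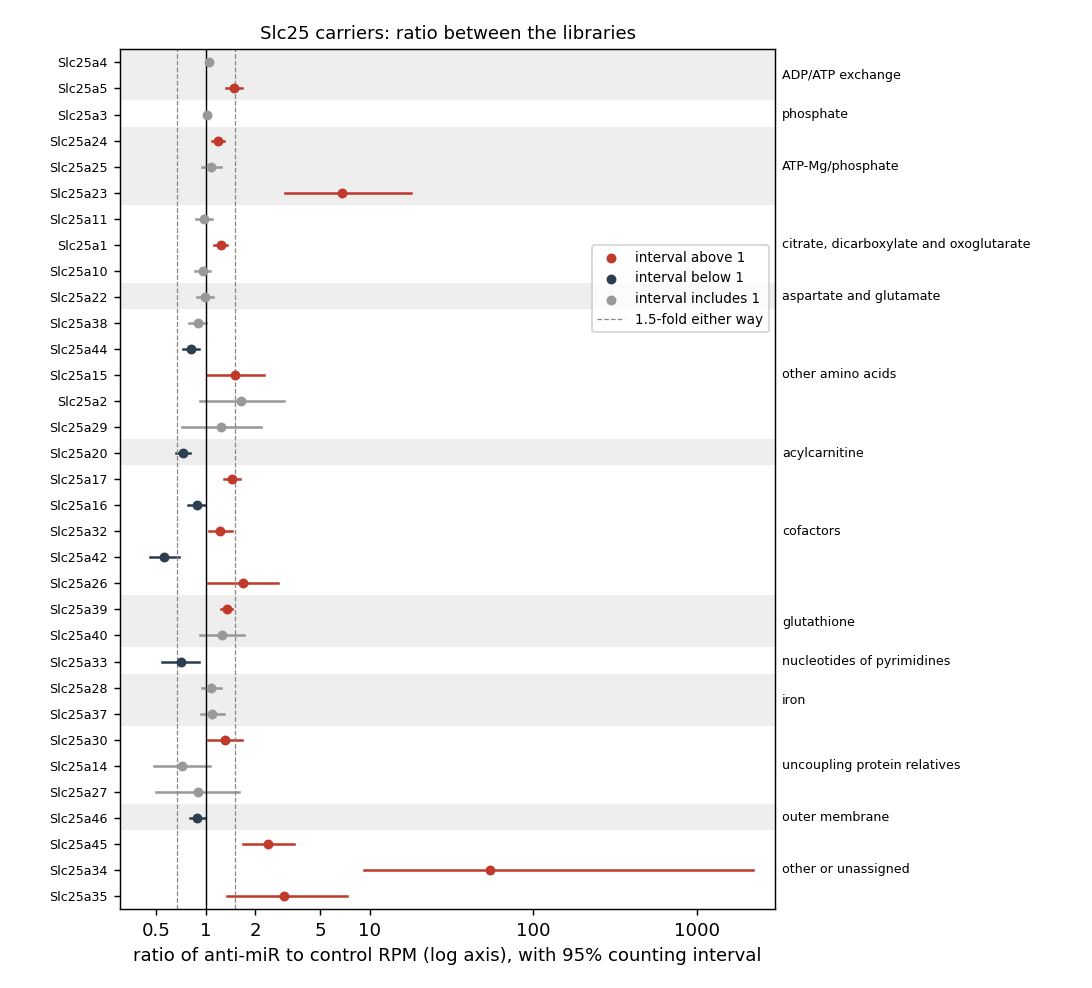
Ratio of anti-miR to control RPM for 33 of the 34 Slc25 carriers with reads (log axis), grouped by substrate; points are the ratios, bars the 95% counting intervals, and dashed lines mark 1.5-fold in either direction. Slc25a42 is the only carrier left of the lower dashed line at 0.558, and the bar of Slc25a34, at 54.1, spans 9.28 to 2179.

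Of the glutathione carriers, Slc25a39 had an interval above 1 and Slc25a40 one that included it. Slc25a39 (chromosome 10, 91510878 to 91515221), which brings glutathione into mitochondria, had 1360 reads in the anti-miR and 1097 in the control library, 64.1 and 47.8 RPKM, the highest level after Slc25a3 and Slc25a4. Its ratio was 1.34 (1.24 to 1.45), with a log2 ratio of 0.42 within a like-level range of −0.49 to 0.48; RefSeq annotates 8 pseudogenes named after it. Its paralog Slc25a40 had 96 reads in the anti-miR and 83 in the control library (1.25-fold, 0.923 to 1.70). Its entry covers 2 copies in rn4, so its exon length of 664.5 bases and its level per length are uncertain. It lies within the annotated span of Grm3 on the same strand, which had 0 reads in both libraries. Genes of glutathione synthesis and use had a median log2 ratio of −0.01 over 6 genes, with Gclm at 0.15 and Gclc, the catalytic subunit of glutamate-cysteine ligase, at −0.47.

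Both iron carriers had ratios whose intervals included 1. The mitoferrins Slc25a28 and Slc25a37 bring iron to the sites of heme and iron-sulfur cluster synthesis, and Slc25a37 is the form typical of red cell precursors. Slc25a28 had 445 reads in each library, a ratio of 1.08 (0.947 to 1.24), and Slc25a37 had 319 reads in the anti-miR and 315 in the control library, a ratio of 1.10 (0.935 to 1.28). Slc25a37 took 41.8% of the reads on both in the anti-miR (38.2 to 45.3%) and 41.4% in the control library (37.9 to 45.0%). The 10 genes of iron use had a median log2 ratio of 0.12. The cluster scaffold gene Iscu was lowest at −0.62, below its like-level range of −0.48 to 0.40. It had 88.4 RPM in the anti-miR and 136 RPM in the control library.

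Of the carriers of amino acids other than glutamate, Slc25a44 had an interval below 1 and Slc25a15 one above 1. Slc25a38, which imports glycine for heme synthesis, had 32.7 RPM in the anti-miR and 36.6 RPM in the control library, a ratio of 0.892 (0.789 to 1.01), whose interval lay below 1 under each of 3 other scalings. Slc25a44, a carrier of branched-chain amino acids, had 37.2 RPM in the anti-miR and 45.5 RPM in the control library, a ratio of 0.818 (0.731 to 0.915). The 3 scarcer members had ratios above 1, with an interval above 1 in Slc25a15 alone. The ornithine carrier Slc25a15 had 63 reads in the anti-miR and 45 in the control library, a ratio of 1.51 (1.02 to 2.27). With edgeR's TMM scaling that ratio was 1.49 and its interval included 1. Slc25a2, an ornithine carrier in humans, had 32 reads in the anti-miR and 21 in the control library and was 1.65-fold higher (0.922 to 3.01). Slc25a29, a carrier of basic amino acids, had 31 reads in the anti-miR and 27 reads in the control library (0.718 to 2.16).

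The pyrimidine nucleotide carrier Slc25a33, which serves mitochondrial DNA and RNA synthesis, had 98 reads in the anti-miR and 151 in the control library. Its ratio was 0.702 (0.539 to 0.912), with a log2 ratio of −0.50 inside a like-level range of −1.32 to 1.28. Slc25a46, an outer membrane member with a role in mitochondrial fusion and fission, had 46.9 RPM in the anti-miR and 52.7 RPM in the control library, a ratio of 0.890 (0.804 to 0.985). Of the relatives of the uncoupling proteins, Slc25a30 alone had an interval that left out 1. Slc25a30 had 150 reads in the anti-miR and 124 reads in the control library, a ratio of 1.31 (1.02 to 1.67). Slc25a14 had 45 reads in the anti-miR and 68 reads in the control library (0.480 to 1.06). Slc25a27, best known from neurons, had 24 reads in the anti-miR and 29 reads in the control library (0.499 to 1.59).

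Carriers without a well established substrate were scarce. The 3 with reads all had intervals above 1, against 33.6% of all genes that averaged 1 RPM or more. Slc25a34 and Slc25a35 reached that mean only through the anti-miR library, with 0.062 and 0.561 RPM in the control. Slc25a34 (chromosome 5, 160519856 to 160523712) had 50 reads in the anti-miR library and 1 in the control library. The ratio came to 54.1, and counting error alone put it between 9.28 and 2179. Its log2 ratio of 4.42 lay within the like-level range of −3.85 to 5.23, whose upper end no ratio could pass at that mean level. With a pseudocount of 1 RPM the log2 ratio was 2.04. Slc25a45 (chromosome 1, 208513653 to 208520545) had 104 reads in the anti-miR and 47 in the control library, 7.02 and 2.93 RPM. It was 2.39-fold higher (1.68 to 3.46), or 1.23 on the log2 scale, within a range of −1.74 to 1.98. Slc25a35 had 25 reads in the anti-miR and 9 reads in the control library, a ratio of 3.01 (1.36 to 7.32). It overlaps Rangrf on the other strand by 35 bases. Slc25a47, known from liver, and Slc25a54 were listed at 0 in both libraries.

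Relatives of the family under other symbols were abundant where detected. The uncoupling protein gene Ucp2 had 159 RPM in the anti-miR and 114 RPM in the control library, a log2 ratio of 0.48. That ratio passed 0.38, where the like-level range of Ucp2 ended. Ucp1 and Ucp3 were listed at 0 in both libraries. The outer membrane relative Mtch1 had 295 RPM in the anti-miR and 252 RPM in the control library, and Mtch2 had 125 RPM in the anti-miR and 140 RPM in the control library. Carriers enter mitochondria through the TOM pore, the small TIM chaperones and the TIM22 complex. Of 13 measured genes of this route 3 were 1.5-fold higher and 0 lower, against 11.0% and 8.67% of all genes, with a median log2 ratio of 0.31. Timm10b was highest at 1.58, above its like-level range of −1.34 to 1.26, with 169 reads in the anti-miR and 60 in the control library. The receptor gene Tomm20 was lowest at −0.37, with 73.0 RPM in the anti-miR and 94.7 RPM in the control library.

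The medians of the other partner lists lay between −0.04 and 0.29, beside 0.03 over all genes. Porins, the pyruvate carrier, the calcium uniporter, sideroflexins and mitochondrial ABC transporters had a median log2 ratio of −0.04 over 16 genes, 0 of them 1.5-fold higher and 1 lower, against 11.0% and 8.67% of all genes. The sideroflexin gene Sfxn4 was lowest at −3.03, with 3 reads in the anti-miR and 38 in the control library. That lay within its like-level range of −4.49 to 4.96. Enzymes of the malate-aspartate shuttle and of glutamate had a median of −0.04 over 8 genes, from Gpt2 at −0.75 to Gls2 at 0.55. Gpt2 lay just below its like-level range of −0.72 to 0.98. Genes of citrate export and use had a median of 0.11 over 7 genes, from Idh1 at −0.11 to Acaca at 0.43. One-carbon and glycine genes had a median of 0.29 over 9 genes, 3 of them 1.5-fold higher and 1 lower, against the same 11.0% and 8.67% of all genes, from Mthfd2l at −1.39 to Amt at 0.92. Regulators of mitochondrial gene expression had a median of 0.08 over 10 genes, from Ppargc1b at −0.31 to Tfb1m at 2.14. Tfb1m had 250 reads in the anti-miR and 60 in the control library. For Tfb1m the like-level range ended at 1.31, so its log2 ratio fell outside. Ppargc1a and Esrrg were listed at 0 in both libraries.

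**Figure D4:**
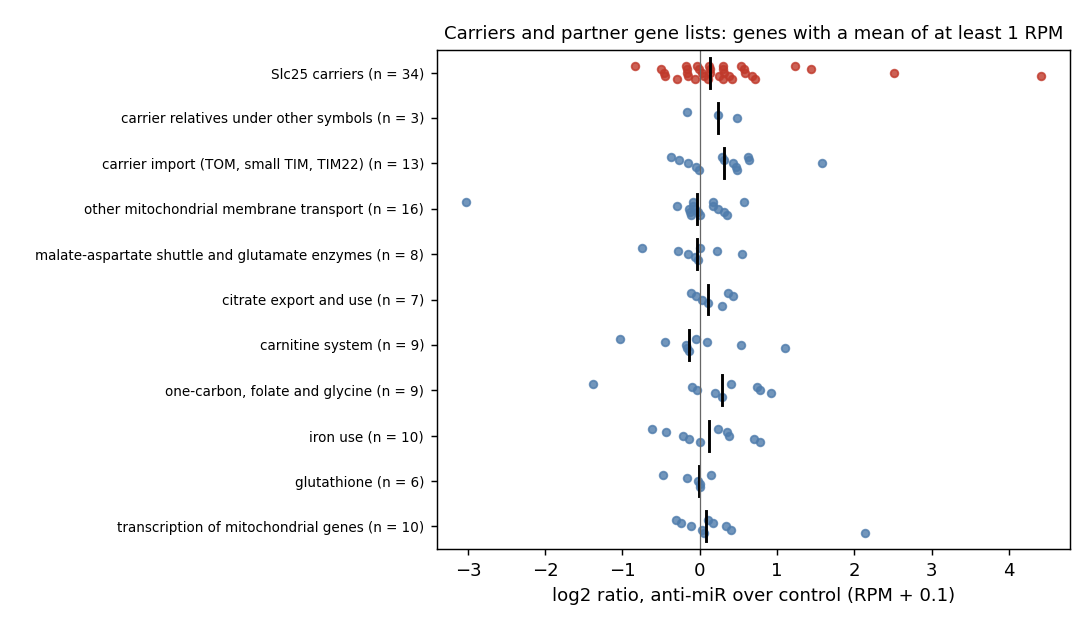
Log2 ratio of anti-miR over control (RPM plus 0.1) for the 34 Slc25 carriers with reads (red) and the genes of each partner list averaging 1 RPM or more (blue); each point is 1 gene and the black bars are medians. The carriers' median is 0.13, list medians run from −0.14 to 0.31, and the single genes farthest from 0 are Slc25a34 at 4.42 and Sfxn4 at −3.03.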

How the data were processed

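Poly(A) RNA was sequenced in 1 anti-miR and 1 control library. Per the file headers, HOMER counted reads over exons of RefSeq transcripts on rn4, using the antisense setting and keeping 1 transcript per gene. The submitters' processing notes list CASAVA 1.8.2 and STAR 2.2.0c beside it, without saying what each did. The deposited values are a read signal scaled to equal column totals by a step not given in the sources used here. Whole reads were recovered: 1 read is worth 1.04 in the anti-miR and 0.962 in the control column, and 100% of values up to 400 reads were whole within 0.01. RPM, RPKM, ratios with Clopper-Pearson intervals and log2 ratios with a pseudocount of 0.1 RPM were computed in Python 3.11.15 with scipy 1.17.1, and the steps were tested on simulated data. edgeR 4.0.16 (TMM) and DESeq2 1.42.0 (median of ratios) gave alternative scalings, and other floors and pseudocounts were tried. With 1 library per group there is no test and no p-value.

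The carriers, role groups and partner lists were chosen with earlier results of these data known. A carrier and some partner genes counted in these groups are not reported here by name. Full values go to the 6 highest in RPKM, the 5 highest and 5 lowest log2 ratios of at least 5 RPM and those 1.5-fold apart, and partner lists are given by their highest and lowest gene, with others chosen after their values were seen. Of 49 Slc25 genes in the RefSeq table, 10 are not among the 39 symbols here, and all but Mcart1 of these were not analysed here.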

Additional observations from a re-analysis of the deposited data

How the results depend on the processing

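With a floor of 5 RPM, which leaves 24 carriers, 0 were 2-fold higher (against 1.95% of all genes), 0 were 1.5-fold higher (against 7.27%) and 7 had a counting interval above 1 (29.2%, against 34.0%). These counts hang on the exact floor, since Slc25a45, with a ratio of 2.39, averaged 4.98 RPM. Leaving out carriers with an annotated pseudogene, an alternative chosen after seeing the data, gave a summed ratio of 1.03, and the other counts and the median stayed within 1.5 times or within their interval. Under TMM scaling, median-of-ratios scaling, totals without the 100 most abundant genes and no floor, the counts for the family were within 1.5 times of those reported, its median log2 ratio ran from 0.11 to 0.13, and none of the 34 log2 ratios changed sign. Under each of these 3 scalings the interval of Slc25a38 lay below 1, and under TMM that of Slc25a15 included 1. A pseudocount of 0.5 RPM brought Slc25a34 to 2.78; 1 RPM brought it to 2.04 and Slc25a23 to 1.47. No paired analysis was possible because each group has 1 library. Depth limits the scarce carriers most: the 13 below 10 RPM rest on 1 to 151 reads per library.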

Other observations

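Carriers lay side by side on rn4 in 3 places, and in each place 1 of the neighbours was listed at 0 in both libraries. On chromosome 2, Slc25a54 (204671682 to 204716990) had 0 reads and Slc25a24, 4533 bases further on the same strand, had 1041 reads in the anti-miR and 947 in the control library. On chromosome 6, Slc25a47 (133192144 to 133197778) had 0 reads, and Slc25a29, 14543 bases away on the other strand, had 31 in the anti-miR and 27 in the control library. On an unassigned contig, Slc25a41 (24723803 to 24731498) had 0 reads, and Slc25a23, 2881 bases away on the same strand, had 44 in the anti-miR and 7 in the control library.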
